A study of Mus musculus with 6 samples.

Results

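The genes described here are 46 core genes of the cell cycle, measured in mouse liver with and without SIRT1. They were chosen by name and fall into 9 classes: 5 cyclins of the D and E types, 3 of the A and B types, 5 cyclin-dependent kinases, 3 Cip/Kip inhibitors, 4 Ink4 inhibitors, 8 E2F factors, 3 pocket proteins, 7 replication proteins (the MCM helicase subunits and Pcna), and 8 mitotic genes with Cdc25a. The arrays carried 77 probes for them, and 41 of the 46 were bright enough to test, among 16513 genes tested in all. Ccnb1, Top2a, Aurkb, Bub1 and Cdkn2a were not.

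The series compared livers of Lox control mice with livers of mice that lack the deacetylase SIRT1 in liver (SIRT1 LKO), and was designed around PPAR-alpha dependent metabolism. All animals were males of 10 weeks in a 95% C57BL/6 background, ate chow ad libitum and were killed at 4 pm. Each group held 6 mice, and RNA of 2 mice was pooled per array, so that a group is 3 pools and the spread between animals is not seen. The sources used here name neither the Cre driver nor the exons removed. Nothing in the labels tells the animals apart, so p-values measure the spread between pools.

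Cyclins bind and switch on the cyclin-dependent kinases, which drive a cell from one phase of division to the next. The D-type and E-type cyclins act in G1, when the kinases they switch on phosphorylate the pocket proteins Rb1, Rbl1 and Rbl2. This releases E2F factors that switch on genes for DNA synthesis, while Cdk1 with cyclin A or B drives mitosis. Ink4 and Cip/Kip proteins hold the kinases back. Adult hepatocytes are mostly quiescent and divide little unless the liver is injured or partly removed. In bulk liver RNA, fewer cells of a type and less RNA per cell cannot be told apart.

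Each value is a log2 intensity minus the array's 75th percentile, so that 0 is the intensity below which 75% of the probes lay, and each gene is compared only with itself. That percentile was 1005 to 1056 in 5 arrays and 1289 in LKO pool 3, with 52.2% to 66.4% of probes well above background. The liver markers Alb (8.93 in the Control mean) and Hnf4a (4.02) were well above background on all arrays. Sirt1 was 0.30 ± 0.06 (SD, n = 3) in Control and 0.06 ± 0.12 in LKO pools (limma, adjusted p = 0.237), which does not check the genotype labels, since it is not known whether the probe lies in the deleted exons. LKO pool 3 stands apart: its deposited value table column matched its scanner file within 1% for 0.853% of probes, against 99.8% in each of the other 5 arrays, and which of them holds the pool is not settled by the files. The scanner files are used below, and results are also given with LKO pool 3 from the value table and without it. All Control pools shared a slide that held no LKO pool, LKO pools 1 and 2 shared another, and LKO pool 3 was alone on its slide. Slide and genotype therefore cannot be told apart in any fit.

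No cell cycle member rose or fell past the threshold. Of the 41 tested, 0 had an adjusted p under 0.05 (limma with Benjamini-Hochberg adjustment over 16513 genes), where 0.145% of all genes did (0.0303% higher and 0.115% lower in LKO pools). At an unadjusted p under 0.05 there were 9 members, 6 of them higher and 3 lower in LKO pools, which is a share close to the 21.1% of all genes. The 3 LKO pools lay wholly above the 3 Control pools in 5 members (Ccne2, Cdk2, Cdkn2c, E2f7 and Pcna) and wholly below them in 7 (Ccnb2, Cdk1, Cdk6, E2f6, E2f8, Mcm2 and Cdc25a), where 15.2% and 13.6% of all genes, 28.8% in all, had groups apart in these directions. The differences, LKO minus Control, ran from -0.78 in E2f8 to 0.80 in Cdkn2c among members measured above background in both groups. E2f7 (1.40) lay beyond that but was read against Control signals not well above background. Of the members wholly above the Control pools, Ccne2 and E2f7 entered the test only through the LKO pools. The E2f8 probe used is listed on the strand opposite to its gene. The differences had a median of -0.03 over the members and 0.02 over all genes tested.

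The smallest p-values belonged to an inhibitor, an E2F repressor and the mitotic kinase: Cdkn2c (0.80) and E2f7 were higher and Cdk1 (-0.62) was lower in every LKO pool. E2f7 entered the test only through the LKO pools, since no Control array had it well above background, and its level was at least 1.37-fold higher in LKO pools. Each reached an adjusted p under 0.05 only in some of the alternatives run. Without LKO pool 3, where 2.72% of all genes passed (1.49% higher and 1.23% lower), 4 members passed: Cdkn2c (0.84, adjusted p = 0.0478), the G1 cyclin Ccnd1 (0.85) and E2f7, with the limit just given, rose, and Cdk1 fell by 0.66 (adjusted p = 0.0489 for the last 3, limma). In that fit each group lies on 1 slide. No slide held both groups in any fit, so slide and genotype cannot be told apart in the results of all 6 arrays either. With the slide as a random block over all 6 arrays the adjusted p was 0.329 for Cdkn2c, 0.331 for E2f7 and 0.337 for Cdk1 (limma). With LKO pool 3 from the value table, where 0.533% of all genes passed, 0 members did. In this fit 17 of the 41 tested members had an unadjusted p under 0.05 (limma), a larger share than the 25.9% of all genes. These 17 include E2f7 and Ccne2, which entered the test only through the LKO pools. Whether the members differ from all genes in this share was not tested.

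**Figure D1:**
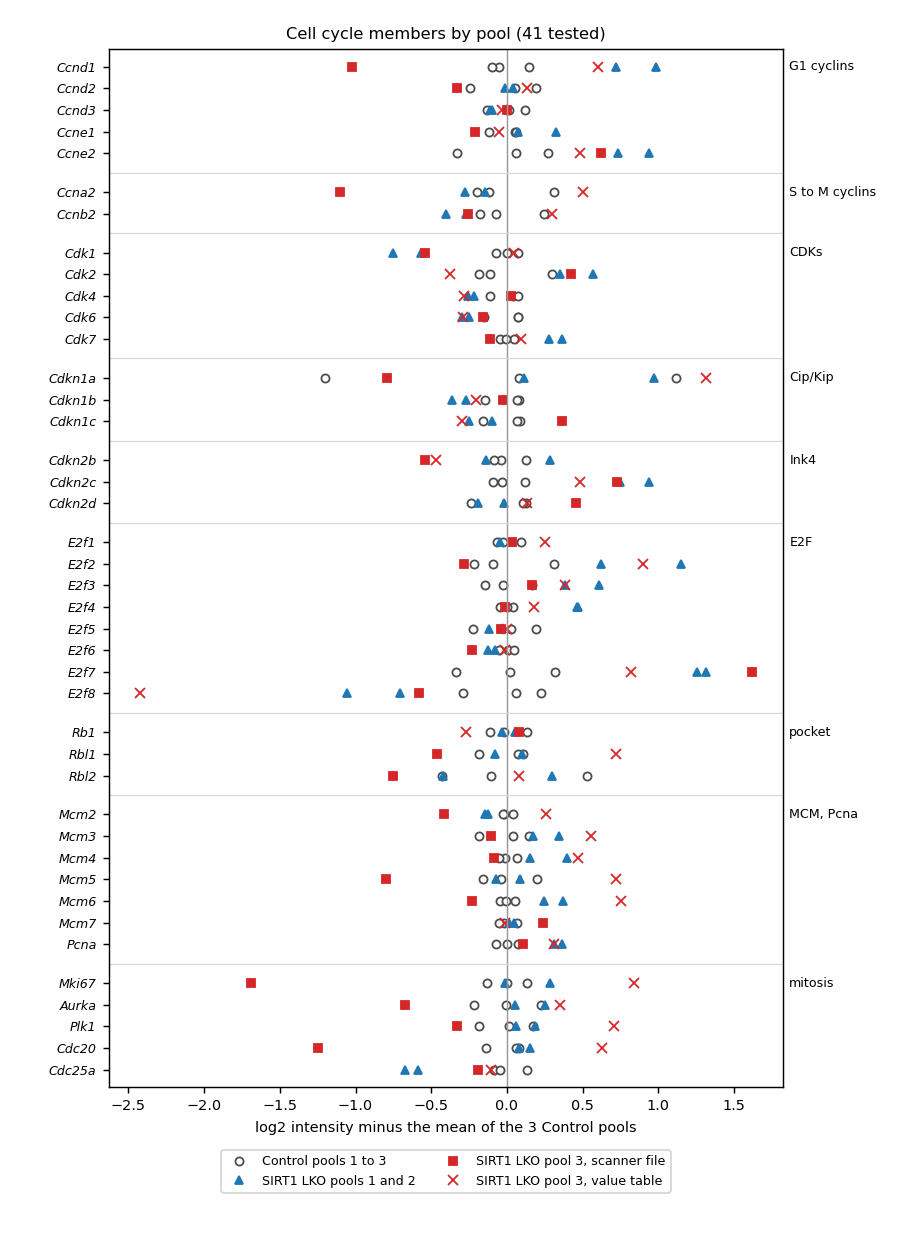
Log2 intensity of each tested member minus the mean of its 3 Control pools (horizontal axis), by class, for Control pools (open circles), LKO pools 1 and 2 (triangles) and LKO pool 3 from the scanner file (squares) and from the value table (crosses). Cdkn2c, E2f7 and Ccne2 lie right of all Control pools in every LKO pool, while the squares of Mki67, Cdc20, Ccna2 and Ccnd1 lie far to the left and their crosses to the right.

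The promoters of 5 members are printed to show what stands before the start sites of the 3 members with the smallest p (Cdk1, E2f7 and Cdkn2c) and of 2 mitotic genes whose signal differed most between the sources of LKO pool 3 (Cdc20 and Mki67). Each runs from 250 bases before to 50 bases after the annotated start, 5′ to 3′ on the gene's strand, from RefSeq on GRCm38.p6. They lie at chr10:69352863-69353162 on the minus strand (Cdk1), chr10:110745189-110745488 on the plus strand (E2f7), chr4:109666707-109667006 on the minus strand (Cdkn2c), chr4:118437294-118437593 on the minus strand (Cdc20) and chr7:135716330-135716629 on the minus strand (Mki67). Capitals mark any match, on either strand, to the E2F core (TTCGCGC or TTGGCGC), the CHR core (TTTGAA or TTCGAA), which is the element of genes expressed late in the cycle, or the NF-Y box (CCAAT).
Cdk1: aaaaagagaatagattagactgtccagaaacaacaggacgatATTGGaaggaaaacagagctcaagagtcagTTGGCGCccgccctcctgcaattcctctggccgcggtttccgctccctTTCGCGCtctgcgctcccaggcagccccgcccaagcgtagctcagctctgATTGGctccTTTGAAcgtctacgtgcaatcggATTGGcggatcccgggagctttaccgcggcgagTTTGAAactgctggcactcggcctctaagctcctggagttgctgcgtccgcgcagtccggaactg
E2f7: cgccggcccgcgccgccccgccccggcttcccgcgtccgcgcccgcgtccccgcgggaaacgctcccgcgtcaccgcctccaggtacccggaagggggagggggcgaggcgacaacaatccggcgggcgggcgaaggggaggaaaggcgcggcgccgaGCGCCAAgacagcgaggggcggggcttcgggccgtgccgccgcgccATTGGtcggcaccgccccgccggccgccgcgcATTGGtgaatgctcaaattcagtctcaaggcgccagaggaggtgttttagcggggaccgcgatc
Cdkn2c: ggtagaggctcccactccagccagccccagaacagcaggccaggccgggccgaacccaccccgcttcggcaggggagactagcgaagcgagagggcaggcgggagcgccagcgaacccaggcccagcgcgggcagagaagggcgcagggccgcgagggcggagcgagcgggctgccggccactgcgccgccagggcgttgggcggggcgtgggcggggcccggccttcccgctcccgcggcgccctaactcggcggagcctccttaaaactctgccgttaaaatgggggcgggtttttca
Cdc20: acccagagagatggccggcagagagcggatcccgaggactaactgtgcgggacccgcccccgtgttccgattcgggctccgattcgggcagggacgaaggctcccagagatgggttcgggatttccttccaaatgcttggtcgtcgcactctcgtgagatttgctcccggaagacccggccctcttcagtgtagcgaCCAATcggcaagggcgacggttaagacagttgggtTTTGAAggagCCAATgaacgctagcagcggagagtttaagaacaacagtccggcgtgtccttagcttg
Mki67: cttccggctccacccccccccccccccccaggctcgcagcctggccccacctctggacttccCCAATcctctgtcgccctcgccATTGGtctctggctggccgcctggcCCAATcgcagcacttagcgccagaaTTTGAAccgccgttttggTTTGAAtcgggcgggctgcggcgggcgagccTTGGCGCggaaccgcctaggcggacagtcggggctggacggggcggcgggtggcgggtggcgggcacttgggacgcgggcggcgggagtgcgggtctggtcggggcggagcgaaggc

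The Cdk1 promoter held 2 E2F cores, 2 CHR cores and 3 CCAAT boxes, and that of Mki67 1, 2 and 3 in the same order. Cdc20 had 1 CHR core, between 2 CCAAT boxes close to the start, and no E2F core. E2f7 had 1 E2F core and 2 CCAAT boxes. The Cdkn2c promoter shown, the first of the 2 listed, held none of these letters. The other, not shown, held 1 CCAAT box and no E2F or CHR core. Of the 36 members with a promoter in the table, 13 (36.1%) held an E2F core, 14 (38.9%) a CHR core and 23 (63.9%) a CCAAT box, where 3.89%, 19.2% and 37.4% of all 32851 promoters of this length did. CHR cores stood in 6 of 7 promoters of the mitotic class, E2F cores in 4 of 6 of the MCM and Pcna class and 4 of 6 of the E2F factors. In 3 members an E2F core overlapped a CCAAT box, as their letters allow. A match is a description of these letters, not of a factor's binding.

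Among the cyclins of G1, Ccne2 alone had groups that did not overlap on the probe that stood for its gene. Ccne2, an E-type cyclin that activates Cdk2 at the start of S phase, was at -3.56, -4.16 and -3.77 in Control pools 1 to 3 and at -2.89, -3.10 and -3.21 in LKO pools 1 to 3. Every LKO pool was above every Control pool, and the difference was 0.77 (SE 0.18, 95% interval 0.34 to 1.19, limma adjusted p = 0.101). It was 0.72 with the value table and 0.84 when LKO pool 3 was left out, and the other Ccne2 probe, which only 1 Control array had above background, differed by 0.87. All 3 LKO arrays but 2 of 3 Control arrays had the probe used well above background. Both Ccne2 probes thus entered the test only through the LKO pools, where they were higher, so the second adds no separate support. Ccne1, the other E-type cyclin, was at 0.57, 0.41 and 0.58 in Control and 0.84, 0.60 and 0.31 in LKO pools (difference 0.06). A dimmer Ccne1 probe listed at the same coordinates was lower in every LKO pool, by -0.19 (-0.07 with the value table).

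Ccnd1, cyclin D1, which starts the G1 programme in response to growth signals, was at 0.22, 0.17 and 0.42 in Control pools and at 1.26, 0.99 and -0.75 in LKO pools. LKO pools 1 and 2 were above all Control pools and LKO pool 3 was below them. The value table put LKO pool 3 at 0.87, above all Control pools. The difference was therefore 0.23 (SE 0.51, adjusted p = 0.830), 0.77 (adjusted p = 0.0594) with the value table and 0.85 (adjusted p = 0.0489) when LKO pool 3 was left out (limma in each). Without LKO pool 1 it was -0.15 and without LKO pool 2 -0.02. The other D-type cyclins, Ccnd2 (-0.10) and Ccnd3 (-0.07), had overlapping groups. The other tested Ccnd2 probes differed by 0.08 and 0.04, also with overlapping groups.

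The cyclins of S phase and mitosis were dim. Ccna2, which pairs with Cdk2 in S phase and with Cdk1 later, was at -3.14, -3.56 and -3.64 in Control and -3.73, -3.59 and -4.55 in LKO pools, overlapping (difference -0.51, adjusted p = 0.341, limma). LKO pool 3 was the lowest pool, but in the value table, at -2.94, it was the highest, and the difference was then 0.03. Ccnb2, a mitotic B-type cyclin, was lower in every LKO pool, at -2.28, -2.42 and -2.27 against -2.19, -1.77 and -2.09 (difference -0.31, adjusted p = 0.252, limma). In the value table LKO pool 3 was at -1.72, above all Control pools. None of the 3 probes of Ccnb1, the other B-type cyclin, was well above background on any array.

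Cdk1, the kinase that drives entry into mitosis, was at -2.86, -2.71 and -2.78 in Control and at -3.54, -3.35 and -3.32 in LKO pools. Its probe, at chr10:68946079-68948488 on mm7 (minus strand), was well above background on all 6 arrays, and every LKO pool was below every Control pool. The difference of -0.62 (SE 0.10, 95% interval -0.86 to -0.38, limma adjusted p = 0.0710) is 1.54-fold lower. The separation did not hold in the value table, where LKO pool 3 was at -2.74, among the Control pools, and the difference was -0.42 (adjusted p = 0.253). With normexp background correction it was -0.03. The other Cdk1 probe was well above background on 1 Control and 1 LKO array and was not tested.

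Of the other kinases, Cdk2, which works with cyclins E and A, was at -3.31, -3.79 and -3.72 in Control and at -3.04, -3.26 and -3.19 in LKO pools. Every LKO pool was higher (difference 0.45, SE 0.15, adjusted p = 0.172, limma), but the value table put LKO pool 3 at -3.98, below all Control pools, and the difference was then 0.18. Cdk6, a partner of the D-type cyclins, differed by -0.24 with groups that did not overlap, while its other tested probes differed by -0.02 and 0.48, the latter higher in every LKO pool. Cdk4, the other partner of the D-type cyclins, differed by -0.15, and Cdk7, which phosphorylates the other kinases, by 0.18, both with overlapping groups.

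Cdkn2c (p18), an Ink4 inhibitor that binds Cdk4 and Cdk6, had the smallest p among the members. It was at 0.89, 0.83 and 1.04 in Control and at 1.67, 1.86 and 1.65 in LKO pools, and in the value table LKO pool 3 was at 1.41. Every LKO pool was above every Control pool in either source, the difference being 0.80 (SE 0.11, 95% interval 0.55 to 1.06), a 1.75-fold higher level (limma adjusted p = 0.0620). Its probe lies at chr4:109037613-109037672 on mm7 (minus strand), and a probe that overlaps it differed by 0.87. Cdkn2c was past the threshold in 3 of the 18 alternatives: without LKO pool 3, with only probes above background on all 6 arrays (adjusted p = 0.0451), and with an intensity trend and robust variance (adjusted p = 0.0385). With normexp it was 0.53 (adjusted p = 0.680).

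The other inhibitors had overlapping groups. Cdkn1a (p21), a Cip/Kip inhibitor induced by p53, was at -4.69, -3.41 and -2.37 in Control and -2.52, -3.38 and -4.28 in LKO pools, so that its spread within each group was far larger than the difference of 0.10 (SE 0.67, adjusted p = 0.950, limma). The value table put LKO pool 3 at -2.18, the highest of all pools. Cdkn1b (p27) differed by -0.22, Cdkn1c (p57) by 0.01, Cdkn2b (p15) by -0.13 and Cdkn2d (p19) by 0.08. Cdkn2a, which encodes p16 and ARF, was not well above background on any array.

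E2f7 and E2f8, the atypical repressors of the E2F family, lay on opposite sides on the probes used, that of E2f8 being of uncertain identity. E2f7 was at -5.66, -5.96 and -6.32 in Control and at -4.73, -4.66 and -4.36 in LKO pools, and in the value table LKO pool 3 was at -5.16. Every LKO pool was above every Control pool, with a difference of 1.40 (SE 0.19, 95% interval 0.94 to 1.86, limma adjusted p = 0.0621). The probe, at chr10:110247297-110247356 on mm7 (plus strand), was well above background on all 3 LKO arrays and on 0 of 3 Control arrays, so it entered the test only through the LKO pools. With each Control array put at the signal of its dimmest probe well above background, or at the probe's own where that was higher, the level was at least 1.37-fold higher in LKO pools. With normexp the difference was 0.58. The other E2f7 probe was above background on no array.

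E2f8 was at 0.97, 0.62 and 1.13 in Control and at -0.15, 0.20 and 0.32 in LKO pools. Every LKO pool was below every Control pool, the difference being -0.78 (SE 0.18, 95% interval -1.22 to -0.35, limma adjusted p = 0.101). LKO pool 3 was at -1.52 in the value table, which made the difference -1.40 (adjusted p = 0.122). This probe is listed at chr7:45107174-45107233 on the plus strand of mm7, whereas the other E2f8 probe, made to the RefSeq transcript, lies at chr7:45087317-45087376 on the minus strand. The E2f8 gene is annotated on the minus strand, so the brighter probe is listed on the strand opposite to it. The probe made to the RefSeq transcript differed by -0.34 with overlapping groups (adjusted p = 0.597 over all probes, limma). Which of the probes measures the E2f8 messenger RNA was not tested.

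Among the activating and other E2F factors, E2f3 differed by 0.39 (unadjusted p = 0.0361, limma adjusted p = 0.207) on its brightest probe, but its other tested probes differed by -0.09 and -0.39, and their mean by -0.03. E2f2, an activator, was at -2.04, -1.64 and -2.16 in Control and -0.80, -1.32 and -2.23 in LKO pools, with LKO pool 3 at -1.04 in the value table. LKO pools 1 and 2 were above all Control pools, and LKO pool 3 was the lowest pool or above all Control pools according to its source (difference 0.50 or 0.89). E2f1 differed by 0.01. Of those that mostly repress, E2f4 (0.31) and E2f5 (-0.06) overlapped, and E2f6 was lower in every LKO pool (-0.15), though its other probe differed by 0.20 and its value in LKO pool 3 of the value table lay among the Control pools. Of the pocket proteins, Rb1 differed by 0.03, Rbl1 by -0.15 and Rbl2 by -0.29, each with overlapping groups.

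**Figure D2:**
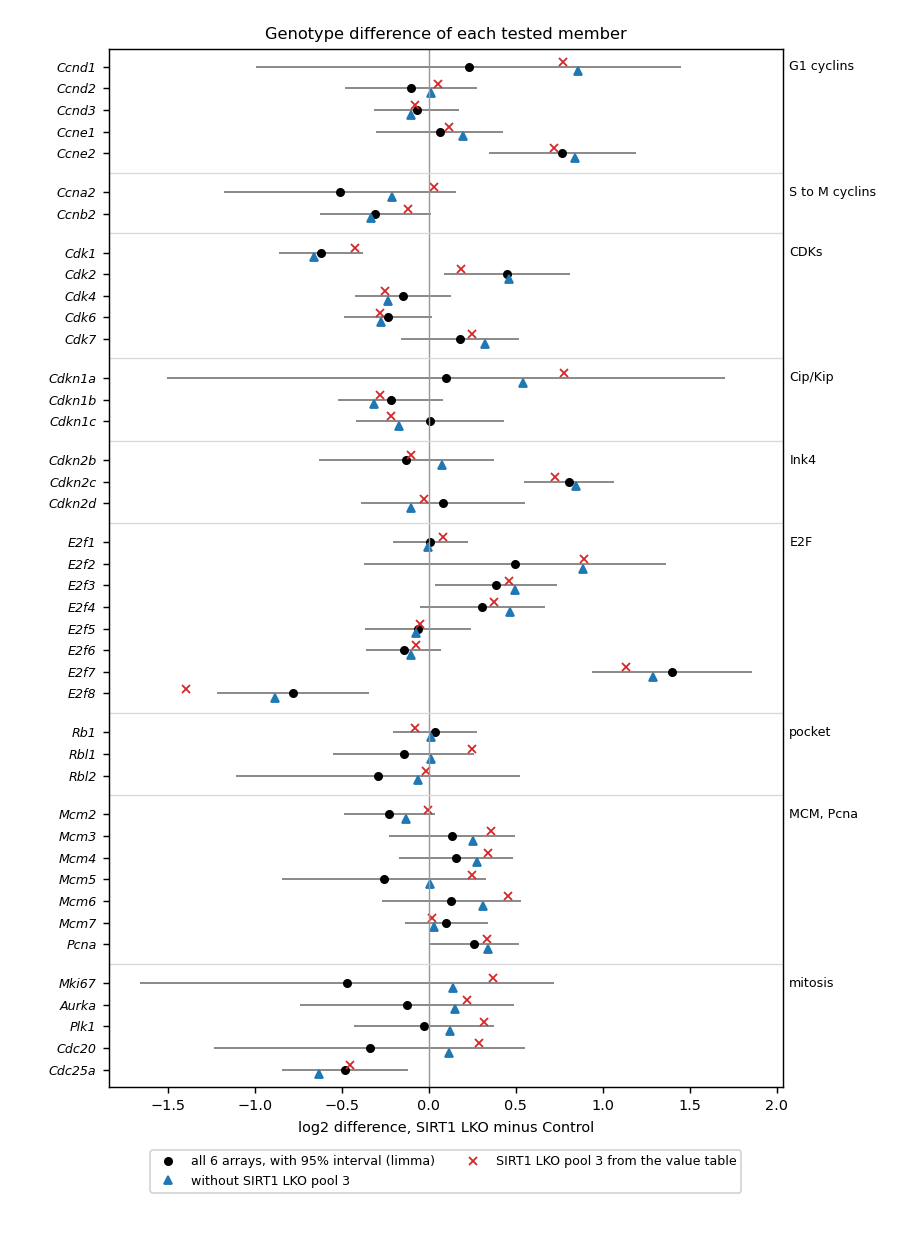
Log2 difference of each tested member, LKO minus Control, with its 95% interval (black points and bars, limma on 3 pools against 3), with LKO pool 3 from the value table (crosses) and without LKO pool 3 (triangles). The markers of Cdkn2c, E2f7 and Ccne2 all lie right of 0 and those of Cdk1, E2f8 and Cdc25a left of it, whereas those of Mki67, Cdc20, Aurka and Plk1 change side.

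The replication proteins were measured by 7 genes. Pcna, the sliding clamp of DNA polymerase, was at 3.34, 3.41 and 3.48 in Control and at 3.77, 3.72 and 3.52 in LKO pools. Every LKO pool was above every Control pool, by 0.26 on average (SE 0.11, limma adjusted p = 0.228). Of the MCM subunits, which form the helicase that unwinds origins, Mcm3 (0.14), Mcm4 (0.15), Mcm6 (0.13) and Mcm7 (0.10) differed by small amounts. The other tested Mcm3 probe differed by -0.12. Mcm2 was lower in every LKO pool (-0.23), but the value table put LKO pool 3 at -2.19, above all Control pools. The Mcm2 difference was then -0.003. Mcm5 was at -2.19, -1.95 and -2.31 in Control and -2.22, -2.06 and -2.95 in LKO pools (difference -0.26), and the value table put LKO pool 3 at -1.43, the highest of all. The median of the class was 0.13 and stayed above 0 in every alternative run, from 0.03 to 0.34.

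The values of the mitotic genes turned on LKO pool 3. Mki67, the proliferation marker Ki-67, was at -2.45, -2.59 and -2.72 in Control and at -2.60, -2.30 and -4.28 in LKO pools, with LKO pool 3 at -1.75 in the value table. LKO pools 1 and 2 lay near the Control pools, and LKO pool 3 was the lowest of all pools or the highest according to its source. The difference was -0.47 (SE 0.49, adjusted p = 0.617), 0.37 (adjusted p = 0.330) with the value table and 0.14 (adjusted p = 0.540) when LKO pool 3 was left out (limma in each).

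Cdc20, the activator of the anaphase-promoting complex, was at -2.34, -2.36 and -2.56 in Control and at -2.27, -2.34 and -3.67 in LKO pools, with LKO pool 3 at -1.79 in the value table. Here too LKO pools 1 and 2 were within or just above the Control range. The difference of -0.34 (SE 0.37, adjusted p = 0.634) was 0.29 with the value table and 0.12 when LKO pool 3 was left out. The mitotic kinases Aurka (-0.12, 0.22 with the value table) and Plk1 (-0.03, 0.32 with the value table) changed sign as well.

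Cdc25a, the phosphatase that removes the inhibitory phosphate from Cdk2 and Cdk1, differed from the others of its class on its brightest probe. It was at -2.82, -3.04 and -3.00 in Control and at -3.63, -3.54 and -3.15 in LKO pools, so that every LKO pool was below every Control pool. The difference was -0.48 (SE 0.15, 95% interval -0.85 to -0.12, limma adjusted p = 0.154), -0.45 with the value table, where LKO pool 3 was at -3.06, and -0.63 without that pool (adjusted p = 0.0504). With normexp it was 0.06. The other Cdc25a probe was well above background on 2 of 3 Control and all 3 LKO arrays. It differed by -0.41 with overlapping groups. With the value table it differed by 0.26, LKO pool 3 being at -2.66, above all Control pools. On that probe the sign thus turned on LKO pool 3 as well. Of the 3 untested genes of the class, the brightest probe of Top2a, the topoisomerase of replicating cells, was above background on 2 Control and 2 LKO arrays, and those of Aurkb and Bub1, of the chromosomal passenger complex and the spindle checkpoint, on none.

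The sources of LKO pool 3 were then set against each other gene by gene. The value table was above the scanner file in 28 of 41 members, and the median of table minus scanner file over all 41 was 0.21. It was above by more than 1 log2 unit in 10 of the 41 (24.4%), namely Mki67 (2.53), Cdkn1a (2.11), Cdc20 (1.88), Ccnd1 (1.63), Ccna2 (1.61), Mcm5 (1.52), E2f2, Rbl1, Plk1 and Aurka. Over all genes the table was above in 58.5%, and by more than 1 log2 unit in 4.64%, and the median of table minus scanner file was 0.07. By class, it was above in 5 of 5 mitotic genes (median 1.04), 2 of 2 cyclins of S phase and mitosis, 6 of 7 replication proteins (median 0.67) and 6 of 8 E2F factors (median 0.20), but in 2 of 5 kinases, 1 of 3 Ink4 and 1 of 3 Cip/Kip inhibitors. E2f8 lay furthest the other way, at -1.84.

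**Figure D3:**
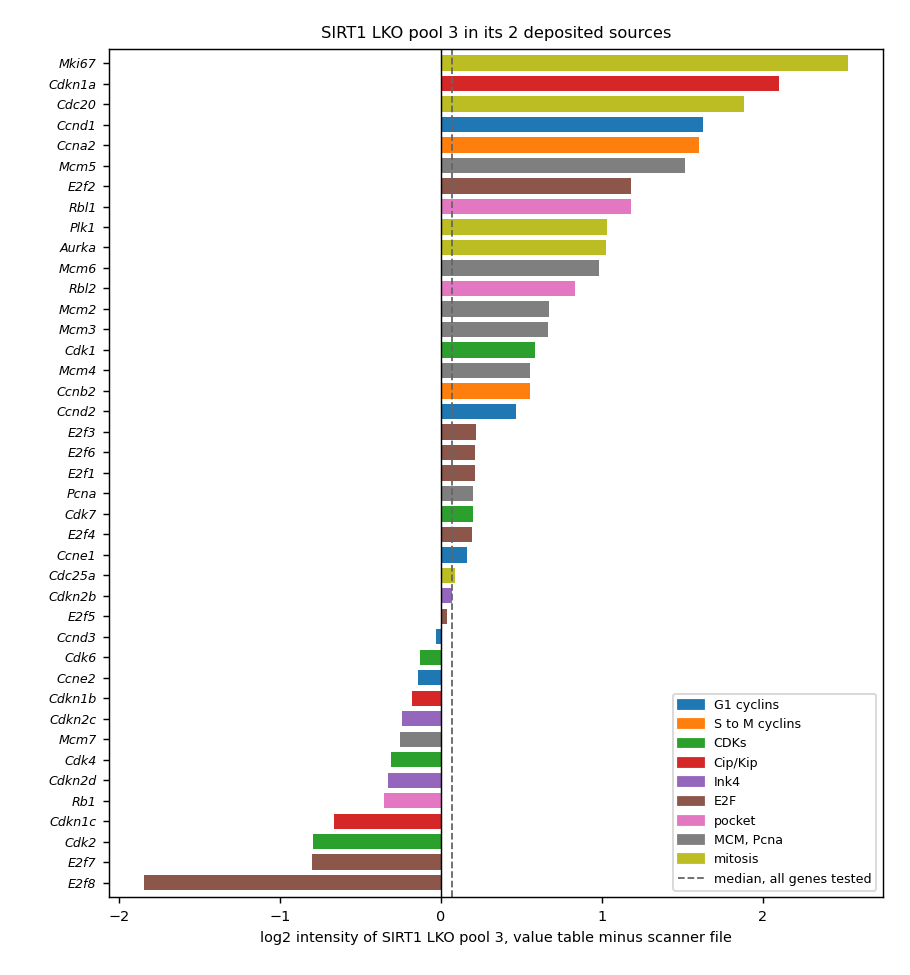
Log2 intensity of LKO pool 3 in the value table minus that in the scanner file, for each tested member, coloured by class, with the median of all genes tested as a dashed line at 0.07. Mki67 (2.53), Cdkn1a (2.11) and Cdc20 (1.88) lie furthest above 0 and E2f8 (-1.84) furthest below.

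Which pool held the lowest value of each gene shows the same dependence. LKO pool 3 was the lowest of the 6 pools in 18 of 41 members (43.9%) and in 23.9% of all genes. It was lowest in 4 of 5 mitotic genes, 4 of 7 replication proteins and 3 of 5 G1 cyclins. With the value table it was lowest in 6 members (14.6%) and highest in 15 (36.6%), against 13.3% and 24.6% of all genes, and lowest in 0 genes of each of those 3 classes. The median SD of a member was 0.13 between Control and 0.24 between LKO pools, where that of all genes was 0.13 and 0.16.

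**Figure D4:**
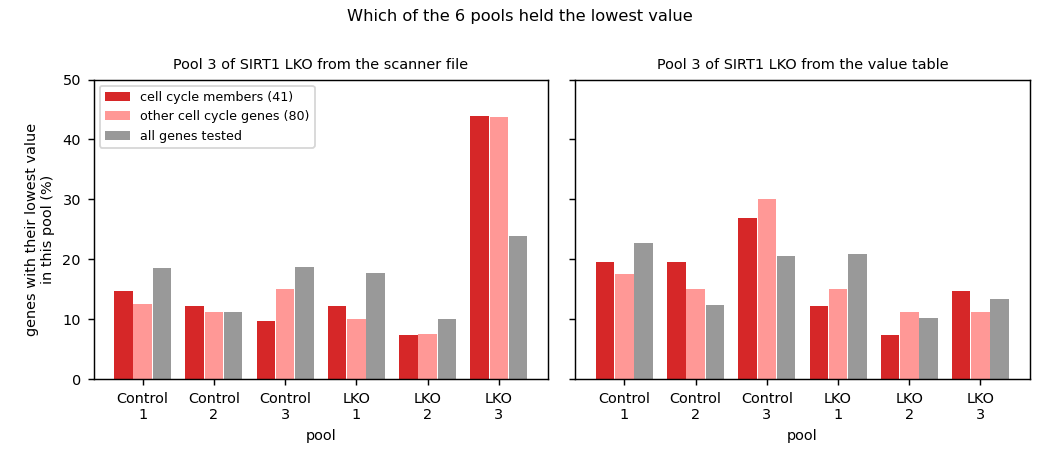
Share of genes (vertical axis, percent) whose lowest value lay in each of the 6 pools, for the 41 members, 80 other cell cycle genes and all genes tested, with LKO pool 3 from the scanner file (left) or from the value table (right). LKO pool 3 holds the lowest value in 43.9% of members on the left and in 14.6% on the right.

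Markers of other cells also differed between the sources of LKO pool 3. The summed level of 9 lymphocyte markers was 1.33 to 2.15 in Control pools, 1.53 and 1.53 in LKO pools 1 and 2, and 1.27 or 2.58 in LKO pool 3 (scanner file or value table), in units of the 75th percentile. That of 8 Kupffer cell and macrophage markers was 49.7 to 88.7 in Control pools, 64.4 and 74.7 in LKO pools 1 and 2, and 59.5 or 118 in LKO pool 3. Of these markers, 7 of 9 and 8 of 8 were well above background on all arrays, and each was so on at least 1. The sum of 6 hepatocyte markers was 1023 to 1215 in Control pools and 1278, 1334 and 1026 in LKO pools (1330 in the value table). Cholangiocyte markers summed to 7.41 to 8.46 in Control pools, to 9.81 and 9.90 in LKO pools 1 and 2, and to 7.10 or 9.57 in LKO pool 3. Stellate cell markers were at 10.3 or 14.5 in LKO pool 3 (9.17 to 11.8 in Control pools) and erythroid markers at 132 or 131 (110 to 122), while endothelial markers went the other way, at 9.14 or 7.17 (6.28 to 7.82). The part of these cells in the values of the mitotic genes, the cyclins and the replication proteins was not tested.

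The class medians depended in part on that pool and in part on other choices. For the mitotic class the median difference was -0.34, with 5 of 5 tested genes lower, but 0.29 with the value table and 0.12 when LKO pool 3 was left out, with 4 of 5 higher in each. Medians of the cyclins of S phase and mitosis (-0.41) and of the E2F factors (0.16) kept their sign in every alternative, over ranges of -0.48 to -0.01 and 0.01 to 0.23. The first of these rests on 2 genes, of which 1 was higher and 1 lower with the value table (median -0.05) and with normexp (-0.01). The second includes E2f7, which entered the test only through the LKO pools. With only probes above background on all 6 arrays, which left E2f7 out, the E2F median was 0.01. With the mean of a gene's probes it was 0.02. Medians of the kinases (-0.15), G1 cyclins (0.06), Cip/Kip inhibitors (0.01), Ink4 inhibitors (0.08) and pocket proteins (-0.15) turned sign in at least 1 alternative. The kinases did so with the mean of a gene's probes, and the G1 cyclins without LKO pool 1, without LKO pool 2 and with only probes above background on all 6 arrays. Over all 41 members 20 were higher and 21 lower in LKO pools, and 25 higher and 16 lower both with the value table and when LKO pool 3 was left out.

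The wider cell cycle was read from 95 further genes on the array, of which 80 were tested. In limma 0 passed and 10 had an unadjusted p under 0.05, 9 of them higher, where 21.1% of all genes had one, with 41 higher and 39 lower in all and a median of 0.00. Without LKO pool 3 the transcription kinase Cdk9 rose by 0.58 (adjusted p = 0.0490, limma). In origin licensing and replication (24 tested of 26) the smallest p-values belonged to the licensing inhibitor Gmnn (0.41, adjusted p = 0.0875) and the origin recognition subunits Orc6 (0.42) and Orc2 (0.25). In nucleotide supply (7 of 7) they belonged to Rrm2 (1.0, adjusted p = 0.231), the regulated subunit of ribonucleotide reductase, with Dut (0.22) and Rrm1 (0.20).

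Rrm2 also varied within the LKO group. It was at -0.85, -0.73 and -0.34 in Control and at 1.12, 0.51 and -0.54 in LKO pools, so that LKO pools 1 and 2 were above all Control pools and LKO pool 3 among them. Its difference was 1.35 with the value table. Among other genes of mitosis and the spindle (23 of 33), the smallest p-values belonged to cyclin F, Ccnf (-0.45), Cdca3 (0.26) and the checkpoint protein Mad2l1 (0.39). In this list the value table was above the scanner file for LKO pool 3 in 21 of 23 genes. The median of table minus scanner file over the 23 was 0.64. Among regulators of kinase activity (16 of 18) these were Cdk9 (0.43), Fzr1 (0.20) and Ccnh (0.21), and among the MYB, FOXM1 and DREAM genes (10 of 11) Tfdp2 (0.23), Mybl2 (-0.26) and Myc (1.15, adjusted p = 0.496, limma), the last at -0.11 with the value table.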

How the data were processed

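Total RNA of pooled livers was labelled with Cy3 (500 ng) and hybridised to 6 one-colour Agilent whole mouse arrays. Per the submitters' processing notes, the deposited scanner files were written by Agilent Feature Extraction 9.5, and their spot intensity was background-subtracted, per the file headers. A value table, also deposited, gives linear intensity made with the Rosetta Resolver error model, per the labels. Its column medians were 74.5, 62.5 and 62.9 (Control) and 62.0, 62.5 and 62.6 (LKO); it was neither scaled nor centred in 5 columns, and the scale of the LKO pool 3 column (median ratio 0.719 to the scanner file) is unknown.

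Control spots and outlier spots were left out, spots of a probe were averaged after log2, and each array was centred on its 75th percentile. Tested probes, 23592 of 41174, were well above background (at least 0.5 of their spots) in all 3 pools of either group; the probe with the highest mean stood for its gene. Of the members, only E2f7 and Ccne2 passed through 1 group. Gene names came from accessions matched to RefSeq GRCm38.p6 (22951 probes) or else from the files; Cdk1 is listed there as Cdc2a. Probe coordinates are on mm7; no genome was used, so exons are not given. Promoters are the first listed per gene.

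The genotype term, LKO minus Control, was tested in limma 3.58.1 (lmFit and eBayes, R 4.3.3), two-sided, at a Benjamini-Hochberg adjusted p under 0.05, and the steps were tested on simulated data. The alternatives listed in the closing section changed background correction, normalization, filter, probe choice, block, variance model, source of LKO pool 3 or the pools used. All members are named, and of the other cell cycle lists those that passed or the 3 smallest p-values. Members and lists were chosen with earlier results of these data known. The number of arrays limits the precision.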

Additional observations from a re-analysis of the deposited data

How the results depend on the processing

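Of all genes tested, 24 passed, 23 after centring on the median of tested probes and 24 with the mean of a gene's probes. The count was 0 with normexp background correction (1160 at an unadjusted p under 0.05, limma in each), 0 with no filter on dim probes (4777), 0 with the slide as a random block (1796), 12 with quantile normalization, 66 with only probes above background on all 6 arrays, 13 with outlier spots kept, 15 for every probe on its own, 88 with the value table and 68 with an intensity trend and robust variance. Leaving out 1 pool gave 0 to 449. The replicate block gave 0 genes (2965 at an unadjusted p under 0.05) and 0 members (7 at an unadjusted p under 0.05, limma); same-numbered pools did not deviate together (correlations of 0.000389, -0.0604 and -0.0867), so the numbers do not pair them.

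For the members the count of 0 became 1 (Cdkn2c) with only probes above background on all 6 arrays and 1 (Cdkn2c) with the intensity trend, and was 0 to 4 when 1 pool was left out, the 4 being without LKO pool 3. It was 0 in the other alternatives. The sign of a member's difference turned in 11 of 41 members with the value table, in 11 without LKO pool 3, in 7 with normexp, in 5 with the mean of a gene's probes and in 0 to 4 elsewhere. Cdkn2c, Cdk1, E2f7, Ccne2 and E2f8 kept their sign in every alternative in which they were tested, and Cdc25a in all but normexp. Members with small differences, such as Ccnd3 (-0.07) and Mcm7 (0.10), also kept theirs in every alternative. A kept sign therefore does not set these members apart, and where groups do not overlap, leaving out 1 pool cannot turn it. The E2f8 probe is listed on the strand opposite to its gene. Signal near background limits Ccne2, E2f7 and the 5 untested members.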
